A study of Mus musculus with 2 samples.

Results

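Mast cells and basophils store proteases in cytoplasmic granules. The genes followed here are 5 listed granule proteases, Cpa3, Gzmb, Mcpt8, Prss34 and Cma1, out of 27998 genes that both matrices hold, and each of the 5 has a row in both. The list names the genes and sets no limit on a measured value, but it was chosen with earlier results of these data known. All 5 were measured in 2 mouse bone marrow libraries of single-cell RNA, 1 library per group, so differences between groups have no replicate check and carry no test. The marrow library holds CD45+ CD3- Ly6G- cells pooled from 3 naive C57BL/6 mice. The Car1-GFP library holds CD45+ cells that expressed the Car1-GFP reporter, pooled from 3 naive Car1-GFP reporter mice on a C57BL/6 background. CD45 is the common surface marker of blood cells, and Car1 (carbonic anhydrase 1) is an enzyme of the red cell lineage. The marrow gate was set against the T cell marker CD3 and the neutrophil marker Ly6G. Even so, 2090 marrow cells were neutrophil-like, in 3 clusters, and Ly6g was among the 10 leading genes of those with 522 and 468 cells; Cd3d had 78 UMIs.

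Cpa3 encodes carboxypeptidase A3, a zinc metalloprotease of mast cell granules that trims peptides from the carboxyl end. Cma1 encodes a chymase-family protease of connective tissue mast cells. Mcpt8 encodes a granzyme-like serine protease and Prss34 a tryptase, and both are used as basophil markers in the mouse. Gzmb encodes granzyme B, which cuts after aspartate and is best known from the granules of killer lymphocytes. Proteases of this kind are packed on serglycin, the product of Srgn, and the granzymes and chymases are trimmed to their active form by cathepsin C, the product of Ctsc. Basophils and mast cells both carry the high-affinity IgE receptor, whose chains are encoded by Fcer1a, Ms4a2 and Fcer1g, and both depend on the transcription factor GATA2.

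On mm10 with GENCODE M21, Mcpt8 (ENSMUSG00000022157) lies on chromosome 14 at 56082166 to 56085273 on the minus strand, Gzmb (ENSMUSG00000015437) on the same strand at 56258838 to 56262260, and Cma1 (ENSMUSG00000022225) at 55941451 to 55944675. These 3 members stand within 0.321 Mb of each other in the chymase and granzyme cluster. Prss34 (ENSMUSG00000056399) lies on the plus strand of chromosome 17 at 25298394 to 25300165, and Cpa3 (ENSMUSG00000001865) on the minus strand of chromosome 3 at 20215620 to 20242181. The sequences just before the start sites are shown for the 3 members most abundant in the marrow library, and for Gzmb, which was carried at several UMIs by a few Car1-GFP cells. They come from RefSeq on GRCm38.p6, run 5′ to 3′ on the strand of the gene, and end at the RefSeq start. For Mcpt8 the last 76 bases are left out because GENCODE already places the gene there. Capitals mark AGATAA, the letters bound by GATA factors, and TGTGGT, the letters bound by RUNX factors, or its reverse complement.
Mcpt8, chr14:56085274-56085447, minus strand: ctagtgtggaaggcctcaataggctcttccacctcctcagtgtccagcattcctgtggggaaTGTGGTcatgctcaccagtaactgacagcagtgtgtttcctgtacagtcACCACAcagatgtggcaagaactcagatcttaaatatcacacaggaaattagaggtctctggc
Prss34, chr17:25298144-25298393, plus strand: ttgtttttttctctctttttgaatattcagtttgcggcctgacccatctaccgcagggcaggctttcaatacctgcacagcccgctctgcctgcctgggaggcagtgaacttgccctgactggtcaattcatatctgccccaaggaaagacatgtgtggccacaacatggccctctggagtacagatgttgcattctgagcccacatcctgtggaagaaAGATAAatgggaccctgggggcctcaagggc
Cpa3, chr3:20242182-20242431, minus strand: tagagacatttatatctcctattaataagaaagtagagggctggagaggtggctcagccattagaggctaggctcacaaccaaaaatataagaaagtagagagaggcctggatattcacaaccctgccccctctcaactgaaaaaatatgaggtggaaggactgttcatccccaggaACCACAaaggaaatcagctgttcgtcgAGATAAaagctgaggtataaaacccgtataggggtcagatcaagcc
Gzmb, chr14:56262335-56262584, minus strand: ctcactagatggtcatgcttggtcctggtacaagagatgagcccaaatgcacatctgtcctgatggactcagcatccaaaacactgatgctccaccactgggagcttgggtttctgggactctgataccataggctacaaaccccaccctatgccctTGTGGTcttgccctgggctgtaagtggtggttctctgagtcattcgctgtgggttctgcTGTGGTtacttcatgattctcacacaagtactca
Both strands of the 250 bases before each RefSeq start were searched for 4 motifs. The GATA motif AGATAA stood 46 bases before the start of Cpa3 and 31 before that of Prss34, and 9.99% of 32851 windows held it. The RUNX motif TGTGGT stood in the windows of Gzmb (93 and 34 bases before the start), Mcpt8 (188 and 139) and Cpa3 (73), and in 4614 of all 32851 windows. The ETS motif GAGGAA, found in 23.3% of windows, matched once, 65 bases before the Mcpt8 start, within the bases left out above. A further GATA motif, TGATAA, in 7.94% of windows, matched in none of the 5, and the Cma1 window held no match of the 4 motifs. These matches are descriptions of the letters in the window.

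After filtering, 6268 marrow cells with 8303633 UMIs (median 1031 per cell, lowest 593) and 2400 Car1-GFP cells with 42795219 UMIs (median 15512.5, lowest 4700) were left. A UMI (unique molecular identifier) marks 1 captured RNA molecule, and levels are given as counts scaled to the summed UMIs of the same cells (CPM). Intervals are exact, at 95%, and cover counting error only. Where a gene had no UMI, up to 3 UMIs are allowed for, or 0.361 CPM (marrow) and 0.0701 CPM (Car1-GFP). The libraries share 13 barcodes among kept cells, and the marrow cells were far shallower, so shares of cells with a UMI are given at equal depth. Marrow cells were clustered without any member, chymase, tryptase, granzyme or Ctsg. Clusters were named from fixed markers, so a member's level played no part in a name.

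Mcpt8 and Prss34 were carried by a small group of marrow cells at very high levels. A cluster of 92 cells, 1.30% of the marrow UMIs, was led by Ms4a2, Fcer1a, Cd200r3 and Gata2 and is called basophil/mast-like; 10 of its 12 markers were at least 2-fold above the rest of the library. It held 3445 of the 4113 marrow Mcpt8 UMIs (83.8%, 82.6 to 84.9) and 1744 of the 2189 Prss34 UMIs (79.7%, 77.9 to 81.3). The Mcpt8 level there was 31793 CPM and the Prss34 level 16095 CPM. These are counts of 3′ tags and are not corrected for transcript length. Of the 92 cells, 86 carried Mcpt8 (93.5%, 86.3 to 97.6) and 82 carried Prss34 (89.1%, 80.9 to 94.7).

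Within this cluster the amount per cell varied widely. The number of Mcpt8 UMIs ran from 0 to 122 with a median of 32 and quartiles of 13.25 and 55.75, in cells of 1083 UMIs at the median. Mcpt8 alone was 3.09% of a cell's UMIs at the median and 10.1% in the highest cell. Prss34 ran from 0 to 61 UMIs with a median of 18, or 1.66% of the cell at the median and 6.57% in the highest. The 5 members together made up 5.17% of all UMIs of a cell at the median and 16.1% in the highest cell. Of the 92 cells, 1 had no UMI of any member.

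**Figure D1:**
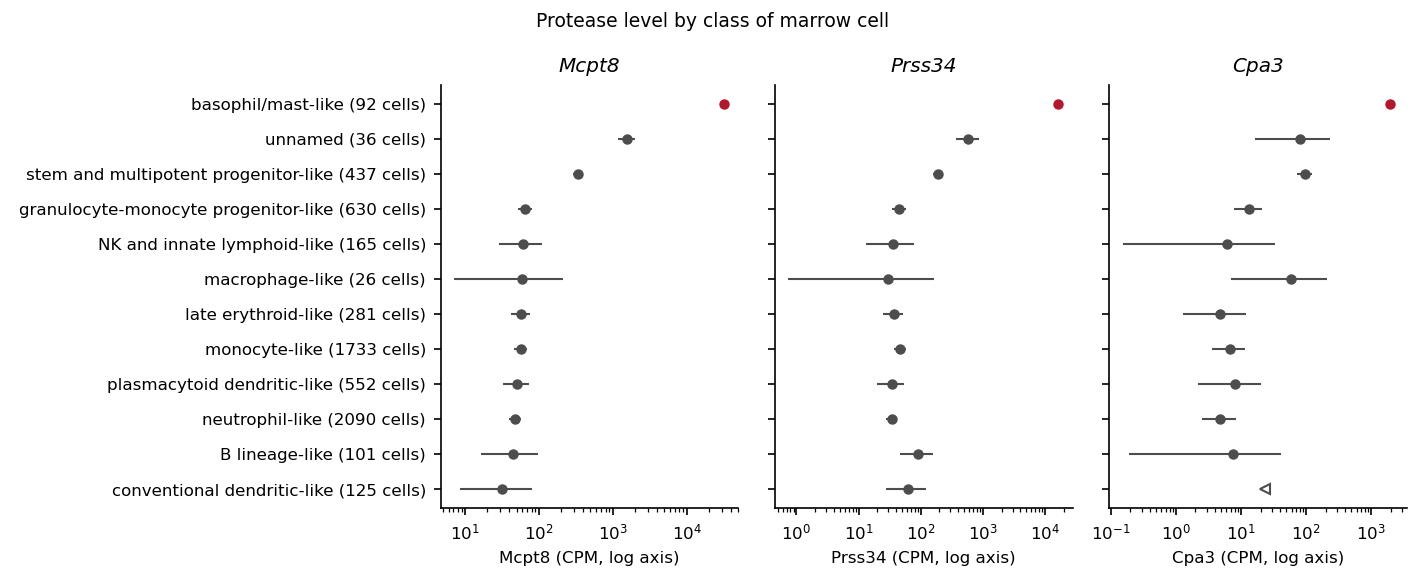
Level of Mcpt8, Prss34 and Cpa3 (CPM, log axis) in each class of marrow cells; points are summed levels, bars exact 95% counting intervals, red marks the basophil/mast-like cluster, and an open triangle stands at the floor of 3 UMIs where no UMI was found. The basophil/mast-like cluster stands at 31793, 16095 and 1929 CPM, above every other class, and Cpa3 also stands higher in the stem-like class (96.4 CPM) than in the monocyte-like (6.81) and neutrophil-like (4.83) classes.

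Outside that cluster, Mcpt8 and Prss34 appeared at low levels in most other classes. Mcpt8 stood at 47.5 CPM in neutrophil-like cells, 56.6 in monocyte-like, 49.9 in plasmacytoid dendritic-like, 56.7 in late erythroid-like and 60.6 in NK and innate lymphoid-like cells. Prss34 stood at 34.2, 47.2, 34.0, 36.6 and 36.3 CPM in the same order. In B lineage-like cells (12 against 6 UMIs) and conventional dendritic-like cells (8 against 4) Prss34 was the higher of the pair, at 89.1 CPM (46.0 to 156) and 63.0 CPM (27.2 to 124), with Mcpt8 at 44.6 and 31.5 CPM. Thinned to 1000 UMIs per cell, 5.08% of neutrophil-like cells (3.86 to 6.55) and 4.77% of monocyte-like cells (3.37 to 6.55) had a Mcpt8 UMI, against 94.1% (83.8 to 98.8) in the basophil/mast-like cluster. The median depths were 1038, 933 and 1083 UMIs. A share at this level is not read here as expression. Neither expression in these classes nor the part of free RNA in the share was tested.

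Cells rich in these proteases also sat outside the cluster. Of 93 marrow cells with at least 5 UMIs of Mcpt8 or Prss34, 79 were in the basophil/mast-like cluster, 9 in the stem and multipotent progenitor-like class, 2 in the monocyte-like class and 1 each in the granulocyte-monocyte progenitor-like class, the late erythroid-like class and an unnamed cluster. The stem-like class had 335 CPM of Mcpt8, and 51.5 CPM without its 9 rich cells. The cells left out were chosen by these genes. The unnamed cluster of 36 cells had 1564 CPM, and 82.5 CPM (3 UMIs) without its 1 rich cell. In the 6175 cells with under 5 UMIs of both genes, Mcpt8 stood at 53.0 CPM and Prss34 at 39.9 CPM.

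The proportion of Mcpt8 to Prss34 differed between the rich cells and the cells with few UMIs. The basophil/mast-like cluster had 1.98 Mcpt8 UMIs per Prss34 UMI (1.86 to 2.09). The 6175 cells with under 5 UMIs of each had 1.33 (1.15 to 1.54), and the intervals do not overlap. The ratio was 1.39 (1.04 to 1.86) in neutrophil-like and 1.20 (0.899 to 1.61) in monocyte-like cells. Counting at most 4 UMIs of either gene per cell defines the low set, and the part of this limit in the ratio was not tested.

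**Figure D2:**
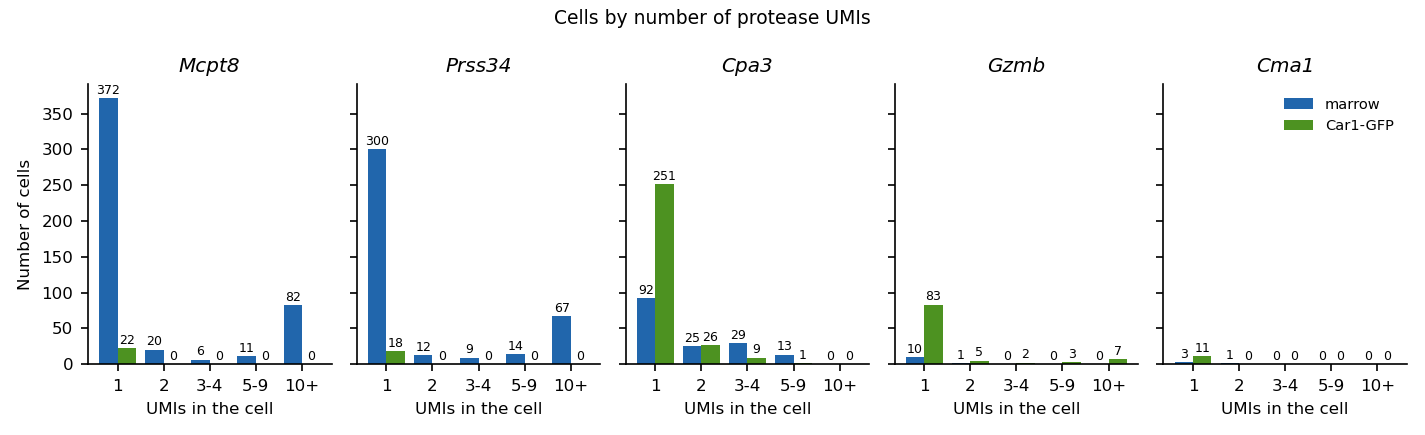
Number of cells (vertical axis) by the number of UMIs of each member in the cell (horizontal axis), marrow library in blue and Car1-GFP library in green. Mcpt8 and Prss34 form a group of 82 and 67 marrow cells with 10 or more UMIs apart from the cells with 1 UMI, and Gzmb a small one of 7 Car1-GFP cells.

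The UMIs per positive cell showed the same split. Of 491 marrow cells with Mcpt8, 372 (75.8%) had a single UMI, while the 93 cells with 5 or more held 89.4% of the UMIs. Of 402 cells with Prss34, 300 had a single UMI and the 81 cells with 5 or more held 83.7% of the UMIs. In the Car1-GFP library 22 cells had Mcpt8 and 18 had Prss34, each with exactly 1 UMI, at 0.514 and 0.421 CPM. The mean per positive marrow cell was 8.38 UMIs for Mcpt8 and 5.45 for Prss34. No Car1-GFP cell carried both genes, and the 22 cells with Mcpt8 were deep (median 23132.5 UMIs).

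Cpa3 was carried more thinly, and a smaller share of its marrow UMIs lay in the basophil/mast-like cluster than for Mcpt8 or Prss34. The basophil/mast-like cluster held 209 of 324 marrow Cpa3 UMIs (64.5%, 59.0 to 69.7), at 1929 CPM (1676 to 2209), in 75 of 92 cells, with a median of 2 and at most 9 UMIs per cell. The stem and multipotent progenitor-like class followed with 57 UMIs in 35 of 437 cells, at 96.4 CPM (73.0 to 125). Without its 9 cells rich in Mcpt8 or Prss34 this class still had 73.8 CPM (53.4 to 99.4). All other marrow cells together had 7.63 CPM (5.79 to 9.86), and the monocyte-like class (6.81 CPM) and the neutrophil-like class (4.83 CPM) lay at that level. The Cpa3 level of the stem-like class thus stood above that of these classes with and without the rich cells. The cells left out were chosen by Mcpt8 and Prss34, so the same step cannot be used to compare the members.

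Some protease and granule genes stood higher in the stem-like cells with Cpa3. Leaving out cells rich in Mcpt8 or Prss34, 27 cells with a Cpa3 UMI were set beside 401 without, at like median depths of 1205 and 1174 UMIs. Of 1705 genes with at least 20 UMIs in all and at least 5 found or implied in the 27 cells, 11.4% were higher and 5.87% lower by 2-fold or more in the cells with Cpa3. Of 11 granule packing genes 4 passed this filter, of which Cd63 was 2-fold higher and Srgn (0.87), Ctsb (0.68) and Vamp8 (-0.12) were not. The genes named next, other than Ctsg and Ms4a2, were picked after their values were seen. Ctsg, the neutrophil and mast cell protease cathepsin G, stood at 602 CPM against 131 (log2 difference 2.20, 1.52 to 2.86). Mpo, the myeloperoxidase of early granulocytes, stood at 1548 against 494 CPM (1.65, 1.25 to 2.03), and Elane, neutrophil elastase, at 451 against 149 (1.60, 0.83 to 2.30). Lmo4, a LIM-domain cofactor, stood at 752 against 134 CPM (2.49, 1.86 to 3.09), and Cd63, a granule membrane protein, at 473 against 138 (1.78, 1.02 to 2.48). Ms4a2 had 8 UMIs in 5 of the 27 cells and 2 UMIs in 2 of the 401, while Fcer1a had none in the 27 cells. Mcpt8 itself stood at 215 against 37.3 CPM (2.53, 1.27 to 3.69), on 10 UMIs in 7 of the 27 cells, and Prss34 had none there. Cells rich in either gene were left out on both sides, so both values are descriptions of a set limited by these genes. Prss34 had 26 UMIs in the 428 cells, so its absence from the 27 cells cannot show a lower level. Dntt, an early lymphoid gene, had no UMI in the 27 cells and was found in 11.7% of the 401.

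In the 92 basophil/mast-like cells, having Cpa3 or not went with depth. The 75 cells with Cpa3 had a median of 1178 UMIs and the 17 without it 785. Mcpt8 stood at 32992 CPM in cells with Cpa3 and 24261 in those without (log2 difference 0.44, 0.29 to 0.60), and Prss34 at 16079 and 16196 (-0.01, -0.21 to 0.19). The intervals for Ms4a2 (-0.49, -1.18 to 0.27) and Gata2 (-0.63, -1.43 to 0.26) include 0. The part of depth in the Mcpt8 difference was not tested.

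In the Car1-GFP library Cpa3 had 340 UMIs in 287 cells, at 7.94 CPM, and 251 of these cells had a single UMI. Clusters of this library are given by number. Cluster 0, 570 shallow cells (median 6550.5 UMIs) led by Vim, Plac8, Ifitm1, Sox4 and Gata2, had 34.3 CPM (28.9 to 40.5), and 29.9 (24.8 to 35.7) without the 12 cells with several Gzmb UMIs described further on. The other 1830 cells had 5.12 CPM (4.43 to 5.89). Thinned to 4000 UMIs, 11.9% of cluster 0 (9.38 to 14.9) carried Cpa3, against 0.913% to 4.12% in clusters 1 to 8. Cluster 9, with 43 cells, had none at this depth. Clusters 10 and 11, with 24 and 12 cells, had 8.33% each, which is 2 cells and 1 cell. Cluster 6, led by the platelet genes Pf4 and Gp1bb, had 10.9 CPM (7.65 to 15.1), the highest of clusters 1 to 8.

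In cluster 0, the genes named here differed by less than 2-fold between cells with and without Cpa3. Without the several-Gzmb cells, 97 cells with Cpa3 and 461 without had median depths of 6608 and 6551 UMIs. Between them Gata2 differed by -0.12 (-0.40 to 0.15), Lmo4 by 0.23 (-0.33 to 0.76), Itgb7 by 0.00 (-0.91 to 0.82), Slc18a2 by 0.32 (-0.49 to 1.07) and Srgn by 0.16 (0.03 to 0.28) on the log2 scale. Fcer1g (0.59, 0.02 to 1.13) and Cd63 (0.40, 0.04 to 0.74) were a little higher. Among listed genes with enough UMIs, none of 7 mast cell and 8 granule packing genes differed by 2-fold. However, 1 of 13 erythroid genes and 1 of 5 serine protease inhibitors were lower by 2-fold or more. Of 9 genes looked at outside the lists, 1 was higher and 1 lower. No share over all genes is given for this split, so the cells cannot be called alike. The difference between the libraries in this respect was not tested.

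Marrow cells with Cpa3, Mcpt8 or Prss34 carried another of these 3 members more often than cells without it at 1000 UMIs per cell. At that depth 3271 marrow cells could be compared and 2997 shallower ones were left out. Of 80 cells with Cpa3, 50 also carried Mcpt8 (62.5%, 51.0 to 73.1), against 5.48% (4.72 to 6.33) of cells without Cpa3. Of the same 80 cells, 43 carried Prss34 (53.8%, 42.2 to 65.0), against 4.20% (3.53 to 4.95). Of 225 cells with Mcpt8, 53 carried Prss34 (23.6%, 18.2 to 29.7), against 4.07% (3.40 to 4.83) of the others. Most of the Mcpt8 cells had no Prss34 UMI at this depth, and 177 of the 225 lay outside the basophil/mast-like cluster. In that cluster, 42 of 48 Mcpt8 cells carried Prss34 (87.5%, 74.8 to 95.3). At 2000 UMIs, with 911 cells, 19.2% of Cpa3 cells carried Prss34 (6.55 to 39.4) against 8.14% (6.42 to 10.1), and 15.2% of Mcpt8 cells did (8.97 to 23.6) against 7.57% (5.84 to 9.62). These intervals overlap, while for Cpa3 and Mcpt8 they do not, at 34.6% (17.2 to 55.7) against 10.8% (8.88 to 13.1).

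**Figure D3:**
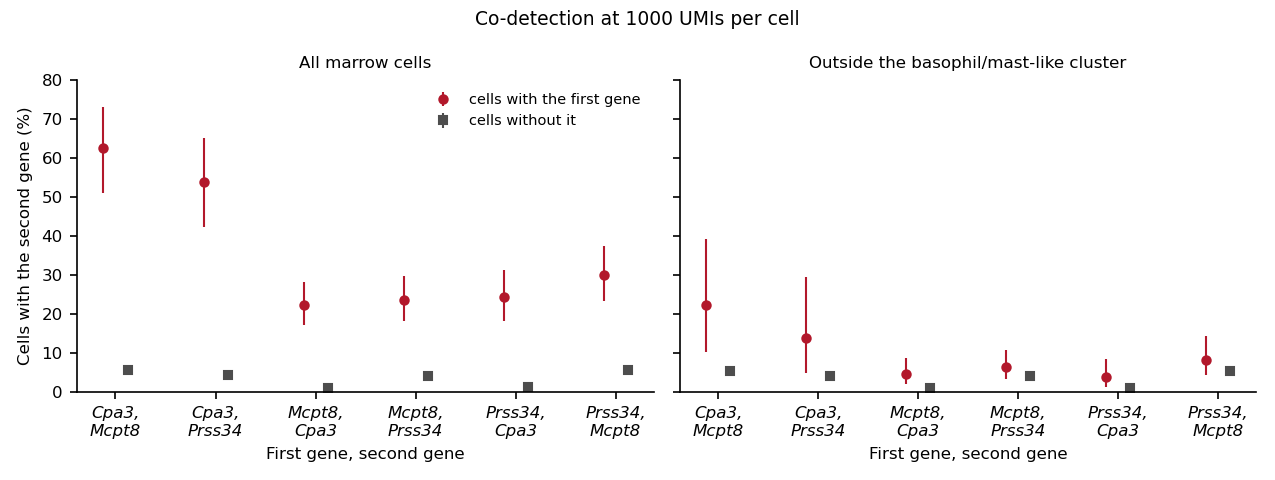
Share of marrow cells with the second gene (%, vertical axis) among cells with the first gene (red circles) and without it (grey squares), at 1000 UMIs per cell, for all cells and for cells outside the basophil/mast-like cluster; bars are exact 95% intervals. Outside the cluster the Mcpt8 and Prss34 pair drops to 6.21% against 4.04%, with overlapping intervals, while Cpa3 and Mcpt8 stay apart at 22.2% against 5.31%.

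Most of this co-detection lay in the basophil/mast-like cluster. There, 42 of 44 cells with Cpa3 carried Mcpt8 (95.5%) and 38 carried Prss34 (86.4%) at 1000 UMIs. At full depth 65 of the 92 cells carried Cpa3, Mcpt8 and Prss34 together, 14 carried Mcpt8 and Prss34 without Cpa3, and 5 carried Cpa3 and Mcpt8 without Prss34. Outside the cluster, Mcpt8 cells carried Prss34 in 6.21% (3.14 to 10.8) against 4.04% (3.37 to 4.80) of other cells, and these intervals overlap. Cpa3 cells outside it still carried Mcpt8 more often, 8 of 36 (22.2%, 10.1 to 39.2) against 5.31% (4.55 to 6.14). The cells rich in Mcpt8 or Prss34 that lie outside the cluster are included here.

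Cma1 and the mast cell proteases of mature tissue were near or at 0. Cma1 had 5 UMIs in 4 marrow cells (0.602 CPM) and 11 UMIs in 11 Car1-GFP cells (0.257 CPM), and none in the basophil/mast-like cluster, where the exact interval for 0 of 92 cells reaches 3.93%. Its transcripts share 10.6% of their 31-base words with another gene, Gm48934, so its few reads may be split. Of 15 other proteases with a row in the chymase locus and other mast cell protease lists, 12 had no UMI in either library, among them Mcpt4, Mcpt9, Cma2, Tpsab1 and Tpsb2. Mcpt1 had 1 UMI and Mcpt2 had 4, all in the Car1-GFP library. Ctsg was the exception among these 15, with 2339 marrow UMIs, of which 117 lay in the basophil/mast-like cluster (1080 CPM, 893 to 1294). The granzymes Gzma, Gzmk and Gzmm are listed with the cytotoxic lymphocyte genes, are not among the 15, and had 290, 2 and 8 marrow UMIs.

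Of the 15 listed mast cell genes, 11 had a UMI in the basophil/mast-like cluster, summing to 4827 CPM, and Mitf, Hpgds, Mrgprb1 and Mrgprb2 were at 0. In the NK and innate lymphoid-like class 9 of the 15 had a UMI, summing to 1520 CPM. Mrgprb1 and Mrgprb2, receptors of connective tissue mast cells, had no UMI in either library, and Hpgds, the prostaglandin D synthase of mast cells, had none in the 92 cells. Kit, the stem cell factor receptor that mast cells keep, stood at 64.6 CPM (26.0 to 133), on 7 UMIs. The cluster was named from fixed markers, whose levels are given as a check: Cd200r3, an activating receptor of basophils and mast cells, stood at 378 CPM against 2.56 in other marrow cells, Fcer1a at 563 against 1.83 and Il4, a cytokine made by basophils, at 73.8 against 0.122.

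Gzmb was almost absent from the marrow library and concentrated in a few Car1-GFP cells. The marrow library had 12 Gzmb UMIs in 11 cells (1.45 CPM, 0.747 to 2.52). The NK and innate lymphoid-like class had 4 of them (24.2 CPM), the basophil/mast-like cluster 3 in 2 cells (27.7 CPM), and the stem-like, granulocyte-monocyte progenitor-like and late erythroid-like classes the rest. The Car1-GFP library had 262 UMIs in 100 cells (6.12 CPM, 5.40 to 6.91), a log2 difference of 2.08 (1.25 to 3.05) over the marrow library. Of these 100 cells, 83 had a single UMI, 5 had 2, and 12 had 3 or more. The 12 cells, of 2400, held 169 of the 262 UMIs (64.5%), and without them the level was 2.18 CPM and the log2 difference 0.59. Gzmb transcripts share 1.35% of their 31-base words with Gzmc, which had no UMI here.

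**Figure D4:**
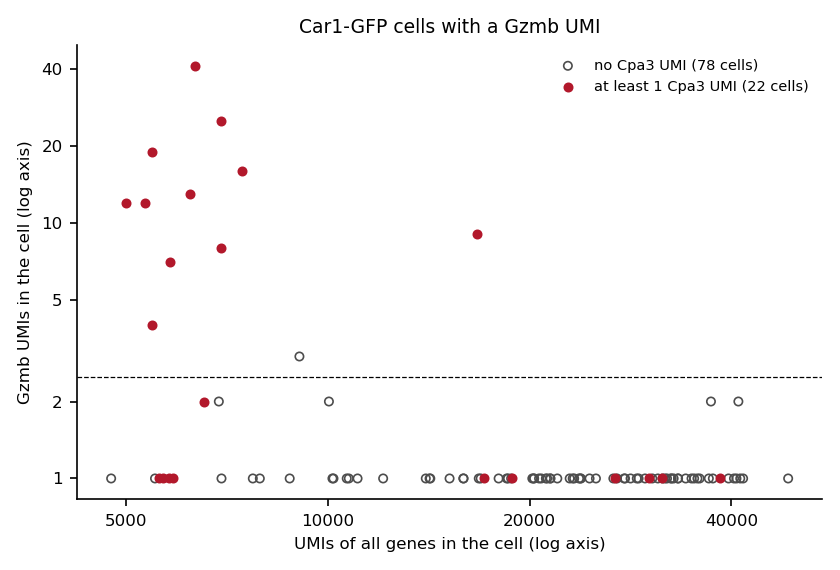
Gzmb UMIs (vertical log axis) against all UMIs of the cell (horizontal log axis) for the 100 Car1-GFP cells with Gzmb; filled red points also carry Cpa3 and the dashed line separates 3 or more Gzmb UMIs. The 12 cells above the line have between 4994 and 16683 UMIs and 11 of them carry Cpa3, while the cells with 1 Gzmb UMI spread to greater depths.

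The 12 cells carried 41, 25, 19, 16, 13, 12, 12, 9, 8, 7, 4 and 3 Gzmb UMIs. Granzyme B made up 0.647% of all UMIs in the highest of them and 0.0331% in the lowest. They were not deep cells: their median was 6275 UMIs, against 23058 for the 88 cells with 1 or 2 Gzmb UMIs. The cell just inside the limit had 3 UMIs of 9062 and no Cpa3, and the 5 cells just outside it had 2 UMIs each. All 12 fell in cluster 0, whose 545 cells without Gzmb had a median of 6574 UMIs. None was marked as a doublet. In a clustering of unscaled values, 10 of the 12 fell in a separate cluster of 12 cells. The choice of scaled over unscaled values was made after seeing the data, since unscaled values gave no basophil/mast-like cluster. UMIs of Xist, a transcript of female cells, were found in 5 and UMIs of Y-linked genes in 7, with 1 cell having both and 1 neither.

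Cpa3 was carried by 11 of these 12 cells, 1 UMI in 7 of them, 2 in 1 and 4 in 3, a level of 242 CPM (150 to 371). Of Car1-GFP cells without Gzmb, 11.5% carried Cpa3 (7.47 CPM), and of those in cluster 0, at like depth, 16.9% did (28.3 CPM). The log2 difference was 5.02 (4.31 to 5.66) against all cells without Gzmb and 3.10 (2.35 to 3.78) against those of cluster 0. Of the 88 cells with 1 or 2 Gzmb UMIs, 11 (12.5%) carried Cpa3; of the 13 of them in cluster 0, 5 did. Mcpt8 and Prss34 had no UMI in the 12 cells, and Cma1 had 1. At 4000 UMIs per cell, 11 of 32 cells with Gzmb carried Cpa3 (34.4%, 18.6 to 53.2), against 4.31% (3.53 to 5.20) of cells without Gzmb. At 2000 UMIs the shares were 3 of 27 (11.1%, 2.35 to 29.2) and 2.36% (1.79 to 3.05), with overlapping intervals, and at 1000 UMIs 3 of 18 (16.7%, 3.58 to 41.4) and 1.05% (0.680 to 1.55).

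Some genes of the IgE receptor and of granules were high in these cells, and others were not. Against the cells without Gzmb, 16.7% of 2955 genes stood 2-fold or more above in the 12 cells and 9.64% 2-fold or more below, among genes with 20 UMIs in all and at least 5 found or implied in the 12 cells; against cluster 0 the shares were 11.9% and 4.58% of 2880 genes. Most listed genes passed this filter through the 12 cells themselves, so their number is no support. Ms4a2, the beta chain of the receptor, had 12 UMIs in 7 of the 12 cells (139 CPM against 2.78 in cluster 0, log2 difference 5.64, 4.33 to 6.96). Fcer1g, its gamma chain, had 37 UMIs in 9 cells (427 against 35.6 CPM, 3.58, 3.02 to 4.11). Fcer1a, the alpha chain that binds IgE, had 1 UMI in 1 cell. Of 11 granule packing genes 9 had a UMI in the 12 cells, and all 11 had one in the 545 cells of cluster 0 without Gzmb. Against cluster 0, Ctsc differed by 2.03 (0.54 to 3.23), Srgn by 0.96 (0.71 to 1.20), Ctsb by -0.27 (-1.91 to 0.97) and Vamp8 by -0.50 (-1.14 to 0.08), and Ndst2 and Rab27a were at 0. Itgb7, an integrin of mast cell progenitors, stood at 196 against 20.7 CPM (3.24, 2.40 to 4.01).

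Hdc, which makes histamine, had 5 UMIs in 5 cells and Slc18a2, which loads it into granules, 9 UMIs in 6 cells. Il6, a cytokine, had 11 UMIs in 9 of the 12 cells (127 CPM) and was found in 0.565% of cells without Gzmb. Gata2 stood at 450 CPM against 200 in cluster 0 (1.17, 0.67 to 1.63). Kit, at 69.3 CPM, did not stand apart from cluster 0 at 65.9 (0.07, -1.39 to 1.21). Of the 15 listed mast cell genes, 10 had a UMI in the 12 cells, and Hpgds, Mrgprb1, Mrgprb2, Rab27b and Hs3st1 were at 0. In the 545 cells of cluster 0 without Gzmb, 12 of the 15 had a UMI, and in the NK and innate lymphoid-like marrow class 9 did. This count therefore does not set the 12 cells apart. The summed list stood at 1524 CPM in the 12 cells, 382 in those of cluster 0 and 1520 in the NK and innate lymphoid-like class. In the 12 cells it ran from 4 to 22 UMIs per cell.

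The 10 genes with the largest ratio against cells without Gzmb, among those with 20 UMIs in the 12 cells, were Id2, Lmo4, Scin, Klf6, Cpa3, Fcer1g, Igfbp4, Limd2, Fosb and Lgals1. Id2, an inhibitor of helix-loop-helix factors used by innate lymphocytes and other blood lineages, had 22 UMIs in 8 cells, at 254 CPM against 4.04 in cluster 0 (log2 difference 5.97). Lmo4 was found in all 12 cells, at 1858 against 38.9 CPM (5.58, 5.25 to 5.91). Scin, which encodes the actin-severing protein scinderin, stood at 531 against 48.3 CPM (3.46, 2.96 to 3.93). Cd63 stood at 889 against 97.5 CPM (3.19, 2.82 to 3.54). Both Lmo4 and Cd63 were also higher in stem-like marrow cells with Cpa3 than in those without, but both were picked there after their values were seen. In cluster 0 both differed by less than 2-fold between cells with and without Cpa3. The other leading genes are not given for the stem-like cells, so no shared pattern is drawn from these genes.

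Most killer lymphocyte genes were at 0 in the 12 cells, and also in the cells of cluster 0 without Gzmb. Of 16 listed cytotoxic lymphocyte genes, 15 were at 0 in the 12 cells, among them Prf1, which encodes perforin, Gzma, Ncr1, Klrd1, Eomes, Tbx21, Cd3e and Ccl5. The list's 48 UMIs were all Nkg7, a granule membrane gene, found in 11 of the 12 cells at 554 CPM, against 271 in cluster 0. In the 545 cells of cluster 0 without Gzmb, 13 of the 16 genes were at 0, and in the marrow basophil/mast-like cluster 10 were. Zeros of this list are thus not particular to the 12 cells, where the floor of 3 UMIs is 34.6 CPM. In the NK and innate lymphoid-like marrow class all 16 genes had a UMI and the list summed to 10720 CPM. The neutrophil granule proteases summed to 34.6 CPM (3 UMIs, 7.14 to 101) in the 12 cells and 37.9 CPM in cluster 0, and Ctsg had no UMI.

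Red cell genes were present in the 12 cells. Of 13 listed erythroid genes 12 had a UMI in the 12 cells, all 13 in the cells of cluster 0 without Gzmb, and 10 in the marrow basophil/mast-like cluster. The list summed to 6510 CPM (5984 to 7070) in the 12 cells, with 23 to 108 UMIs per cell, and to 7831 CPM (7744 to 7919) in the cells of cluster 0 without Gzmb. Hbb-bs, a beta globin, stood at 2805 against 2883 CPM (log2 difference -0.04, -0.23 to 0.14). Klf1 stood at 231 against 288 CPM (-0.32, -1.03 to 0.32), Gata1 at 185 against 175 CPM, and Car1, the gene the reporter is named for, at 404 against 756 CPM (-0.90, -1.43 to -0.43), with a UMI in 10 of 12 cells. The part of free red cell RNA in these values was not tested.

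**Figure D5:**
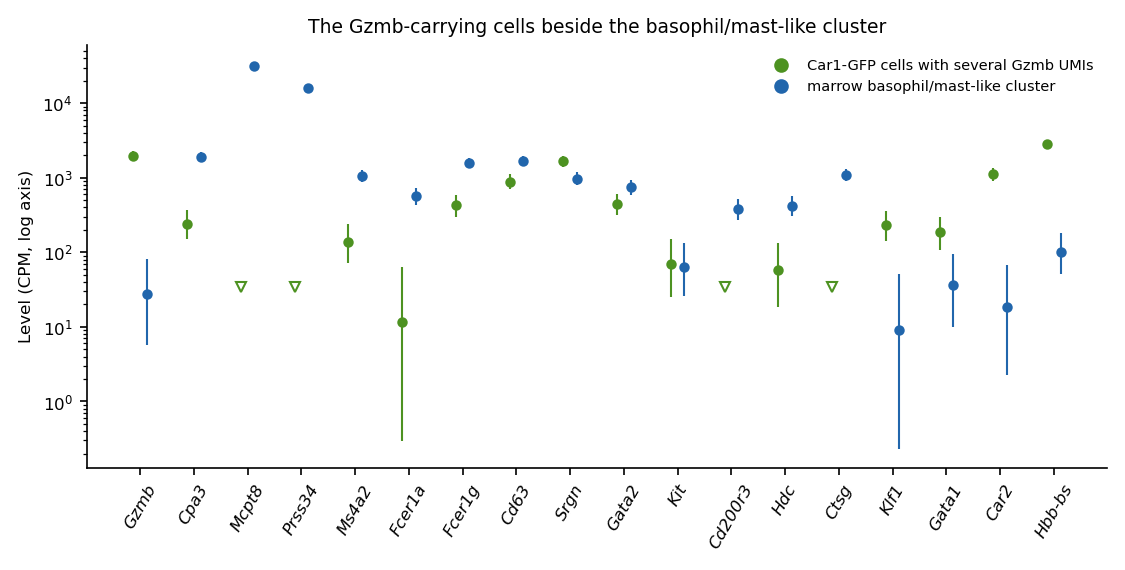
Level (CPM, log axis) of selected genes in the 12 Car1-GFP cells with several Gzmb UMIs (green) and the 92 cells of the marrow basophil/mast-like cluster (blue); bars are exact 95% counting intervals and open triangles stand at the floor of 3 UMIs where no UMI was found. Gzmb is high in green (1951 against 27.7 CPM), Mcpt8 and Prss34 in blue, and Cpa3, Ms4a2, Fcer1g and Gata2 are present in both.

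Set beside the basophil/mast-like marrow cluster, the 12 cells had a different set of proteases. Gzmb stood at 1951 CPM (1668 to 2268) in the 12 cells and 27.7 CPM in the cluster, 70.5-fold higher. Cpa3 stood at 242 and 1929 CPM, 7.96-fold lower in the 12 cells (log2 difference -2.99, -3.71 to -2.34). With their 0 counts set at the floor of 3 UMIs over the 12 cells (34.6 CPM), Mcpt8 was 918-fold and Prss34 465-fold lower in the 12 cells. Set at the same floor, Ctsg was 31.2-fold and Cd200r3 10.9-fold lower. The exact intervals of the log2 difference reach up to -9.54 for Mcpt8, -8.56 for Prss34, -4.64 for Ctsg and -3.09 for Cd200r3. The 12 cells were chosen by Gzmb, so its difference is a description, and the cells come from different libraries, mice and gates, which cannot be told apart from the kind of cell.

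Genes of the IgE receptor and of granule packing differed from member to member. Ms4a2 stood at 139 and 1061 CPM (-2.94, -3.93 to -2.08), Fcer1g at 427 and 1569 (-1.88, -2.43 to -1.36), Fcer1a at 11.5 and 563 (-5.61, -10.93 to -3.08) and Gata2 at 450 and 748 (-0.73, -1.32 to -0.16), in the order of the 12 cells and the cluster. Srgn, the proteoglycan core that holds proteases, stood at 1674 and 978 CPM (0.77, 0.40 to 1.15). Ctsc stood at 69.3 and 55.4 CPM (0.32, -1.58 to 2.23), on 6 UMIs each. Cd63 stood at 889 and 1670 CPM (-0.91, -1.31 to -0.52), and Vamp8, which drives granule fusion, at 277 and 581 (-1.07, -1.81 to -0.37). Rab27a, which docks granules, had no UMI in the 12 cells and was at least 2.93-fold lower there, and Ndst2, which sulfates heparin, was at 0 in them on 6 UMIs in the cluster. The interval for Kit includes 0 (0.10, -1.75 to 1.90). Of the serine protease inhibitors, which guard cells against their own granules, 2 of 8 had a UMI in the 12 cells (Serpinb6a and Serpinb1a) and 2 of 8 in the cluster (Serpinb9 and Serpinb1a). In the 545 cells of Car1-GFP cluster 0 without Gzmb, 7 of 8 had one.

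Over the whole libraries, Mcpt8, Prss34 and Cpa3 were lower in Car1-GFP cells and Gzmb was higher. Mcpt8 stood at 495 CPM in the marrow library and 0.514 in the Car1-GFP library (log2 difference -9.91, -10.59 to -9.31), and Prss34 at 264 and 0.421 (-9.29, -10.05 to -8.63). Cpa3 stood at 39.0 and 7.94 CPM (-2.30, -2.52 to -2.07). Cma1 differed by -1.23 with an interval that includes 0 (-2.87 to 0.65). Of 12076 genes with at least 20 UMIs in both libraries together, 32.7% were lower and 22.2% higher by 2-fold or more among Car1-GFP cells, with a median of -0.23. Of the 4 members past that filter 3 were lower and 1 higher. TMM and DESeq2 scaling shifted every difference by 0.39 and 0.38, which kept each member's direction. Fewer cells of a type and less RNA per cell cannot be told apart in these sums.

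The related gene lists are given for the same comparison, with genes at 0 in a library set at the floor of 3 UMIs. Of 15 basophil genes past the filter (16 listed), 13 were 2-fold or more lower in Car1-GFP cells and none 2-fold higher, with a median of -4.17; Hdc (-7.04), Csf2rb2 (-6.88), Csf2rb (-6.81) and Cebpa (-6.37) were among the lowest. Of 13 mast cell genes past it (15 listed), 8 were lower and 1 was higher, Gata2 at 1.20 (24.1 to 55.3 CPM), with a median of -2.64; Kit differed by -0.27. Ms4a2 differed by -3.80 and Fcer1a by -4.03. Of 11 granule packing and activation genes 5 were lower, led by Lyst (-5.70), the gene of a granule-size regulator, and Rab27a (-4.83), with Ctsc at -3.29, while Srgn was higher at 0.81 (257 to 449 CPM), short of 2-fold. All 6 neutrophil granule proteases were lower, with a median of -5.74, and so were all 11 cytotoxic lymphocyte genes past the filter (of 16 with a row), with a median of -6.91. Gzma had 290 UMIs in the marrow library and none in the Car1-GFP library. Of 13 erythroid genes, 12 were higher, with a median of 3.12, and the gates of the libraries differ on this lineage.

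At equal depth the shares of cells were lower in the Car1-GFP library for Mcpt8 and Prss34 and higher for Gzmb. At 1000 UMIs, Mcpt8 was found in 6.88% (6.03 to 7.80) of marrow cells and in 0 of 2400 Car1-GFP cells (exact interval up to 0.154%). Prss34 was found in 5.41% (4.66 to 6.24) and again in 0 of 2400 cells. A second random thinning found Mcpt8 in 4 (0.167%, 0.0454 to 0.426) and Prss34 in 1 of the 2400 cells. In the first, 177 of the 225 marrow cells with Mcpt8 and 134 of the 177 with Prss34 lay outside the basophil/mast-like cluster. Cpa3 was found in 2.45% (1.94 to 3.03) and 1.17% (0.777 to 1.68), Gzmb in 0.122% (0.0333 to 0.313) and 0.750% (0.445 to 1.18), and Cma1 in 3 and 1 cells. The Cpa3 difference was smaller at other depths, with 94 of 6268 cells (interval 1.21% to 1.83%) against 0.958% (0.608 to 1.43) at 500 UMIs and 2.85% (1.87 to 4.15) against 2.46% (1.88 to 3.16) at 2000, and the intervals overlap at both. Cma1 was found in 0 marrow cells and 1 Car1-GFP cell at 2000 UMIs. Without thinning, Cpa3 was found in 2.54% of the marrow library and in 287 cells out of 2400 with Car1-GFP, the opposite order, at median depths of 1031 and 15512.5 UMIs.

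Over the 15 marrow clusters, the genes with a pattern most like that of Mcpt8 were Prss34 (Pearson r = 0.976 of log2(CPM + 10)), Ms4a2 (0.970), Fcer1a (0.948), Cpa3 (0.941) and Hgf (0.872). For Prss34 they were Ms4a2 (0.977), Mcpt8, Fcer1a (0.958), Cpa3 (0.913) and Hgf (0.889), and for Cpa3 they were Mcpt8, Ifitm1 (0.918), Prss34, Ms4a2 (0.902) and Fcer1a (0.889). These values rest on 8790 genes and largely on the 1 basophil/mast-like cluster, which Ms4a2 and Fcer1a helped to form. Over the 12 Car1-GFP clusters, Cpa3 was most like Gm17590 (0.955), Slc18a2 (0.944), Ctla2a (0.925), Smim24 (0.923) and Tbc1d10c (0.923), and Gzmb most like Dennd1c (0.908), Fmo5 (0.906), Eva1b (0.904), Itgal (0.898) and Scin (0.896). The clusters share a library and differ in depth, and the values are descriptions.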

How the data were processed

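Both libraries were made with 10x Genomics v2 chemistry, 10000 cells loaded each, per the labels. Per the submitters' processing notes, Cell Ranger 2.1, Seurat 2 and mm10 were used; the role of each is not given in the sources used here. The deposited values are whole-number UMI counts per gene and barcode. Barcodes at or above 10% mitochondrial UMIs were dropped (19 marrow, 122 Car1-GFP). Doublets were marked with Scrublet in scanpy 1.11.5 and removed where at least 0.5% were marked: 171 marrow cells (2.66%) were removed, and 9 marked Car1-GFP cells (0.375%) were kept. Cells were clustered per library (2000 variable genes, scaled to at most 10, 30 principal components, 15 neighbours, Leiden resolution 1). The members, Ctsg and the other chymases, tryptases and granzymes were left out, and the other neutrophil granule proteases were not. Scaling was chosen after unscaled values gave no basophil/mast-like cluster.

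Counts were summed over cells and compared as CPM with exact Poisson or binomial intervals (95%). No test between groups was possible with 1 library each, so no p-value is given. A gene with at least 20 UMIs over both sides counted as measured; for the several-Gzmb cells, and for the stem-like cells with Cpa3, it also needed at least 5 UMIs found or implied there, a limit set after seeing the data. Cells were thinned without replacement to 1000 UMIs, or to 4000 within the Car1-GFP library. "Several Gzmb UMIs" means at least 3. Scaling alternatives used edgeR 4.0.16 TMM factors and DESeq2 1.42.0 size factors.

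The members and gene lists were chosen with earlier results of these data known. The named genes are the members; of each list up to 4 with the largest difference; Ctsc, Srgn, Ctsg, Gzma, Prf1, Ms4a2, Fcer1a, Kit and Gata2; the 5 genes most alike to each member; and the 10 leading genes of the several-Gzmb cells. Cd63, Vamp8, Mpo, Elane, Lmo4, Dntt, Il4, Cd200r3, Hbb-bs, Klf1, Gata1, Car1, Slc18a2 and genes listed as being at 0 were named after their values were seen where the rule did not name them.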

Additional observations from a re-analysis of the deposited data

How the results depend on the processing

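Of 142 alternatives, 101 left a value within its interval (a count within 1.5 times), 40 moved it beyond and 1 reversed it. The Cpa3 log2 difference between the libraries (-2.30) was -1.91 with TMM factors, -1.91 with DESeq2 size factors and -1.74 with every cell weighted equally, and that of Gzmb (2.08) was 0.59 without the several-Gzmb cells. As Car1-GFP minus marrow, the share of cells with Cpa3 (-1.28 percentage points at 1000 UMIs) reversed to 9.42 without thinning, where depth differs between the libraries; Gzmb moved to 3.99 and Cma1 to 0.395. For Mcpt8 (-6.88) it was -3.77 at 500 and -11.4 at 2000 UMIs, and for Prss34 (-5.41) -3.20 and -8.37. The share of marrow Cpa3 UMIs in the basophil/mast-like cluster (64.5%) was 72.7% with doublets kept. At 2000 UMIs, which leaves fewer and deeper cells, co-detection fell to 34.6% for Cpa3 cells with Mcpt8, 19.2% for Cpa3 cells with Prss34, 15.2% for Mcpt8 cells with Prss34, 8.57% for Mcpt8 cells with Cpa3 and 20.8% for Prss34 cells with Mcpt8; cells without the first gene stood at 10.8%, 8.14%, 7.57%, 2.11% and 10.7%, and the intervals overlap for both pairs that end in Prss34 and for Prss34 cells with Mcpt8. Outside the basophil/mast-like cluster the same pairs stood at 22.2%, 13.9%, 6.21%, 4.52% and 8.21%. At 500 UMIs, 38.1% of Mcpt8 cells carried Prss34 and 44.3% of Prss34 cells carried Mcpt8. With at least 5 Gzmb UMIs, 100% of 10 cells carried Cpa3; with at least 2, 12 of 17 did. The Cpa3 log2 difference in the several-Gzmb cells (5.02) was 4.15 with at least 2 Gzmb UMIs and 3.10 against cells of the same cluster. These comparisons with the same cluster, and the scaled clustering, were chosen after seeing the data. Resolution 0.5 and unscaled values gave no basophil/mast-like cluster and so no value. Where a cause is not named, the cause was not tested. No paired analysis was possible because each group is 1 library. The marrow depth, a median of 1031 UMIs per cell, limits what can be seen of Gzmb and Cma1 there, and no replicate error can be given.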
